A study of Mus musculus with 9 samples.

Results

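The genes described here are 34 genes of DNA repair and the replication checkpoint, measured in mouse CD4+ T cells that had been given exosomes of macrophages. They were taken as a list of names, grouped by function, from a count table of 55536 genes, with earlier results of these data known. Their roles divide them into 8 checkpoint genes, 12 of homologous recombination, 10 of the Fanconi pathway, 1 of mismatch repair and 3 others. CD4+ T cells, lymphocytes that direct other immune cells, came from spleens of male mice of wild-type genotype aged 6 to 12 weeks. All 9 cultures held beads coated with anti-CD3 and anti-CD28, which engage the T cell receptor complex and its costimulator, plus 5 ng/mL of murine IL-2. For 18 h, 3 cultures received PBS, which carries no exosomes (the group PBS), and 3 received WT-BMDM-exo, exosomes from wild-type donors (here WT_exo). The last 3 received EKO-BMDM-exo, exosomes from ApoE-deficient donors (here EKO_exo). BMDM usually stands for macrophages grown from bone marrow, exosomes are small vesicles that cells release, and either group received 2e+09 particles per mL. The loss of ApoE lies in the donors of the exosomes, so no gene counted in the T cells checks that label. The labels give no detail of the ApoE allele, and no group was left unstimulated. The replicates are described as biological, yet whether each culture had its own mouse is not given. A p-value here sets a group difference only against the spread between cultures of a group, which may not cover the spread between mice. In the fit to all 9 libraries that spread was estimated over the 3 groups and in part across genes.

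T cells stimulated through CD3 and CD28 enter the cell cycle and copy their genome in rapid succession, which loads replication forks and calls on checkpoint and repair proteins. When a fork stalls, the kinase ATR with its partner ATRIP is switched on by TOPBP1 and, through the adaptor claspin, activates CHK1, while ATM and CHK2 answer double-strand breaks. Homologous recombination copies a broken stretch from the sister chromatid with BRCA1, BRCA2 and their partners, and the Fanconi pathway opens crosslinks between the strands by way of the FANCD2-FANCI clamp. Many of these genes are transcribed mainly around S phase, so their mRNA is known to be scarce in resting T cells.

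The libraries held 25792975 to 32971791 counts each, and every one of the 34 genes passed the filter on low counts, with 77 to 12053 counts in any library. Levels are given as CPM, counts scaled to a common library size with TMM factors. The T cell marker genes Cd3e and Cd4 stood at 460.2 to 537 and 819 to 897 CPM, and Cd8a, of cytotoxic T cells, at no more than 1.06. Together with Cd8b1, the other CD8 gene, it summed to 8.31 to 12.2 CPM, most of it from Cd8b1. EKO_exo replicates 3 and 1 stood alone on the first and second principal components of all genes, with 18.8% and 15.7% of the variance. On the third, with 13.4%, PBS lay at 18.2 to 25.3 and WT_exo at -12.9 to -10.9. EKO_exo replicates 1, 2 and 3 lay there at 5.43, -36.4 and 2.95. Results on EKO_exo are therefore also given without replicates 1 and 3, a fit that leaves 1 EKO_exo library and takes its spread from the other groups.

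In PBS, per kilobase of exon, the most abundant of the 34 mRNAs were Parp1 at 74.3 CPM per kb, Msh6 at 61.2 and Topbp1 at 35.99. Atm followed at 19.2 and Clspn at 15.7, and the median over the 34 genes was 6.65 CPM per kb. The scarcest were Rad51c at 1.48, Fancc at 2.28 and Atr at 3.00 CPM per kb. The coefficient of variation between the 3 libraries of a group had a median of 6.71% over these genes and was highest for Mrnip in WT_exo, at 31.0%.

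The first comparison asked which of these mRNAs differed after exosomes of ApoE-deficient donors, relative to PBS. Of the 34 genes 15 fell, 0 rose and 19 did not pass the test, against 2.87% of all 14684 genes tested that fell and 2.21% that rose. Recombination genes made up the largest group, with 8 of 12 lower, followed by 4 of 10 Fanconi genes and 2 of 8 checkpoint genes. The falls ran from 10.8% for Topbp1 to 37.5% for Fancd2, and 8 genes more had an unadjusted p under 0.05, all with lower values. Of all genes tested 17.1% had such a p in either direction. In 20 genes all 3 EKO_exo libraries lay below all 3 PBS libraries, and 10.6% of all genes tested did so. Leaving out PBS replicate 1 or PBS replicate 2 reduced the 15 to 9.

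The second comparison put exosomes of wild-type donors against PBS and uses the same PBS libraries, so its values do not stand independent of the first. Of the 34 genes 17 fell, 0 rose and 17 did not pass, against 3.14% of all genes tested that fell and 1.83% that rose. By role, 8 of 12 recombination genes, 4 of 10 Fanconi genes, 3 of 8 checkpoint genes and 2 of the 3 others were lower. The falls ran from 10.1% for Topbp1 to 46.7% for Mrnip, and a further 6 genes with lower values and 1 with a higher value, Atm, had an unadjusted p under 0.05. Of all genes tested 15.8% had such a p in either direction. In 21 genes the WT_exo libraries all lay below the PBS libraries, which held for 11.6% of all genes tested. The count of 17 was 10 without PBS replicate 1, and 11 without PBS replicate 2 or without WT_exo replicate 3.

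Over the 34 genes the median log2 fold change was -0.30 in EKO_exo and -0.30 in WT_exo against PBS, where the median over all genes tested was 0.00 in either comparison. Recombination genes had medians of -0.33 and -0.35, Fanconi genes -0.23 and -0.22, and checkpoint genes -0.18 and -0.15, in that order of comparisons. Without EKO_exo replicates 1 and 3 the count in EKO_exo was 6 genes (Clspn, Topbp1, Brca1, Rad54l, Fancd2 and Parp1) and the median -0.26. In a bulk sample fewer dividing cells and less RNA per cell cannot be told apart.

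**Figure D1:**
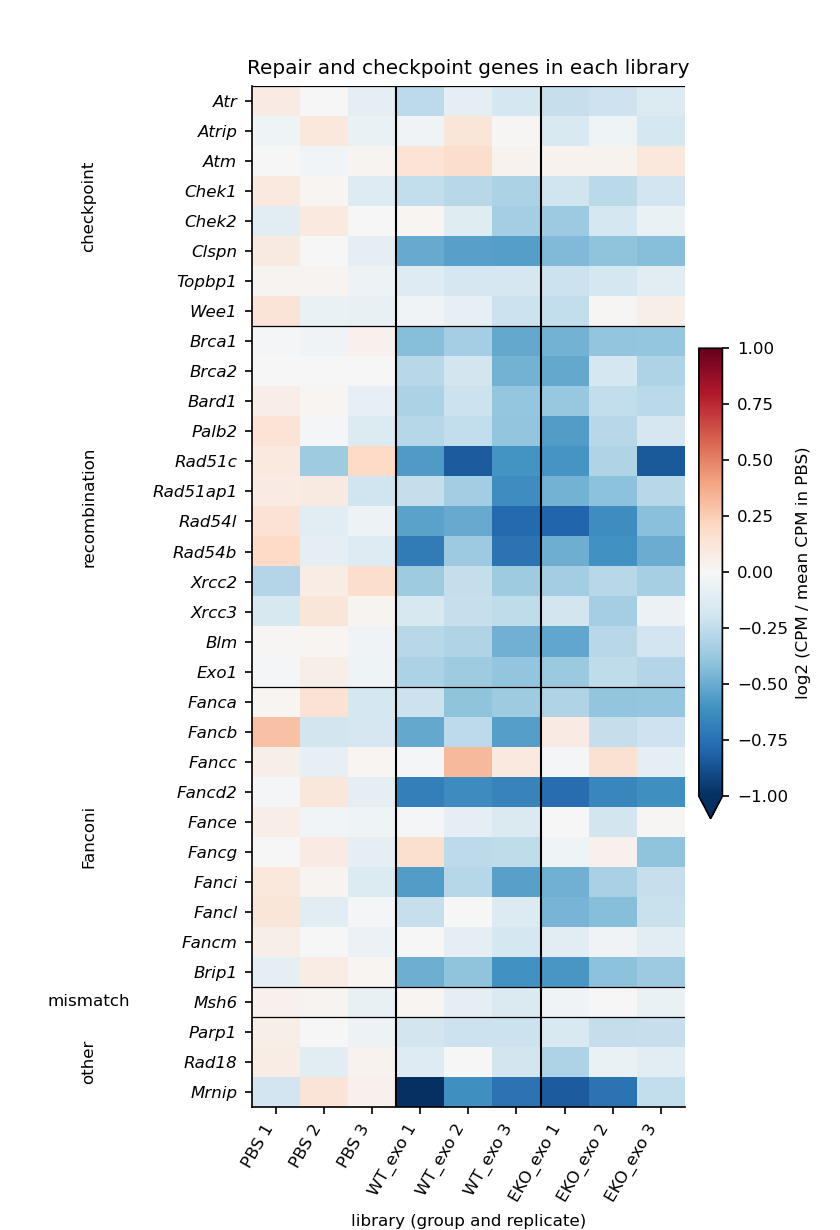
Each row is 1 of the 34 genes, ordered by role, and each column 1 of the 9 libraries; the colour gives the log2 ratio of the CPM to the gene's mean CPM in PBS, and values under -1 (Mrnip in WT_exo replicate 1) share the darkest blue. Most recombination rows are blue in every exosome library, while Fance, Fancm, Msh6 and Atm stay near white.

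The promoters of the 3 genes with the smallest p in EKO_exo against PBS among those with an entry in the promoter table are shown because these genes mark the change most clearly, 1 from the checkpoint and 2 from recombination. Each is the 250 bases before the gene's start in RefSeq on GRCm38.p6, read 5′ to 3′ on the gene's own strand, and capitals mark matches to the motif CCAAT (the box bound by NF-Y) on either strand. The Clspn promoter lies at chr4:126556730-126556979 on the plus strand, and GENCODE M21 places the start of the gene inside this window. Those of Brca1 and Rad54l lie on the minus strand, at chr11:101551956-101552205 and chr4:116123691-116123940.
Clspn: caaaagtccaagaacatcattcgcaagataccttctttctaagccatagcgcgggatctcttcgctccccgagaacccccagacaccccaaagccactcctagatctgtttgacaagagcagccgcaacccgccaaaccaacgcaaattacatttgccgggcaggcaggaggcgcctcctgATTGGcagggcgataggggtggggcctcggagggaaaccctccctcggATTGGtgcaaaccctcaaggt
Brca1: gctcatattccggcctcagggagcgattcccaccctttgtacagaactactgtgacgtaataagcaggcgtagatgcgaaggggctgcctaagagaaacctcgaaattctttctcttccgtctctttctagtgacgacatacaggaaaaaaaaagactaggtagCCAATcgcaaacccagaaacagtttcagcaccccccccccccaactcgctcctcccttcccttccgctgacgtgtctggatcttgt
Rad54l: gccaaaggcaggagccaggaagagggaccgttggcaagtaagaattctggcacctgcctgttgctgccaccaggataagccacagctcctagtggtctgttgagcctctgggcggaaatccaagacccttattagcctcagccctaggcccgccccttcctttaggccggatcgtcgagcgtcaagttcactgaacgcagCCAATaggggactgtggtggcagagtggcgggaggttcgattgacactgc
Clspn had 2 such matches, both reading ATTGG on the gene's strand, 65 to 69 and 17 to 21 bases before the RefSeq start. The nearer match lies past the start that GENCODE M21 gives for Clspn. Brca1 had 1 at 82 to 86 bases and Rad54l 1 at 46 to 50 bases before the RefSeq start. None of the 3 windows held the E2F letters TTGGCGC, the forms written TTCCCGC and likewise written TTCGCGC, nor the form written TTGCCGC, on either strand. The cell cycle homology letters TTTGAA, and the form written TTCGAA, were also not found in these 3 windows, which says nothing of the factors themselves.

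An entry was found for 29 of the 34 genes, and Fancd2, Exo1, Rad54b, Xrcc2 and Wee1 had none. CCAAT occurred in 7 of the 12 promoters of genes that fell in EKO_exo (58.3%), in 9 of 17 of those not called (52.9%) and in 34.5% of 27025 promoters of all genes. E2F letters occurred in 4 of 12, 4 of 17 and 7.97%, and the cell cycle homology letters in 1 of 12, 1 of 17 and 17.4%. The E2F matches of genes that fell were in Topbp1, Brca2, Bard1 and Blm, and those of genes not called in Chek2, Fancb, Fancg and Fancm. These are matches of letters in 250 bases, not sites shown to be bound. The 27025 promoters include genes that were not tested here, so the shares were not compared with those of expressed genes alone.

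Among the checkpoint genes the adaptor and the activator of the ATR branch fell in both exosome groups, and the effector kinase of that branch in WT_exo. Clspn, which encodes claspin (ENSMUSG00000042489, chromosome 4, 126556935 to 126593903 on GRCm38), stood at 120.2, 113 and 105 CPM in PBS, 79.3, 77.5 and 76.9 in WT_exo and 82.9, 85.2 and 83.7 in EKO_exo. All exosome libraries lay below all PBS libraries and those of the exosome groups lay close together. The log2 fold change was -0.42 ± 0.055 in EKO_exo and -0.53 ± 0.055 in WT_exo (SE; edgeR adjusted p = 1.20e-05 and 2.62e-07). Topbp1, the activator of ATR, stood at 411, 411 and 390.3 CPM in PBS, 369.9, 359 and 360.3 in WT_exo and 348, 358 and 374 in EKO_exo. These groups did not overlap with PBS either, but the change was small, at -0.17 ± 0.035 and -0.15 ± 0.035 (edgeR adjusted p = 0.00408 and 0.00712). In WT_exo this call was lost without PBS replicate 1, PBS replicate 2 or WT_exo replicate 2 (edgeR adjusted p up to 0.0617).

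Chek1, which encodes the effector kinase CHK1, was at 60.7, 57.5 and 51.8 CPM in PBS, 47.8, 46.7 and 45.6 in WT_exo and 49.3, 47.1 and 49.7 in EKO_exo. Its exosome libraries all lay below PBS, and it fell in WT_exo, by 17.5% (-0.28 ± 0.070 log2, edgeR adjusted p = 0.0161). That call was lost without PBS replicate 1 or 2 or WT_exo replicate 2 or 3 (up to 0.156). In EKO_exo its log2 fold change was -0.22 ± 0.070 (edgeR adjusted p = 0.0714, and 0.0346 with DESeq2, which passed, as did edgeR above a mean of 5 CPM and without PBS replicate 3), and the 2 exosome groups differed by 0.06 ± 0.071 (0.915).

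The kinases at the head of the pathway did not pass in either comparison as fitted to all libraries. Atr was at 75.02, 71.1 and 66.5 CPM in PBS, 59.01, 66.3 and 62.8 in WT_exo and 60.4, 61.5 and 64.3 in EKO_exo, with log2 fold changes of -0.19 ± 0.065 and -0.18 ± 0.064 in EKO_exo and WT_exo (edgeR adjusted p = 0.0886 and 0.131). Its exosome libraries lay below those of PBS by a narrow margin. Atm, the double-strand break kinase, was at 199, 194 and 202 CPM in PBS, 219, 224 and 203 in WT_exo and 203, 204 and 214 in EKO_exo and was the 1 gene of the 34 whose exosome libraries all lay above PBS. Its log2 fold changes were 0.06 ± 0.042 and 0.12 ± 0.042, with 95% intervals of -0.03 to 0.15 and 0.03 to 0.20 (edgeR adjusted p = 0.522 and 0.129). For Atrip, Chek2 (the kinase downstream of ATM) and Wee1 (a kinase that restrains CDK1) the groups overlapped with PBS. Their log2 fold changes were -0.12 ± 0.092, -0.20 ± 0.12 and -0.05 ± 0.093 in EKO_exo, and 0.03 ± 0.091, -0.14 ± 0.12 and -0.11 ± 0.092 in WT_exo.

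**Figure D2:**
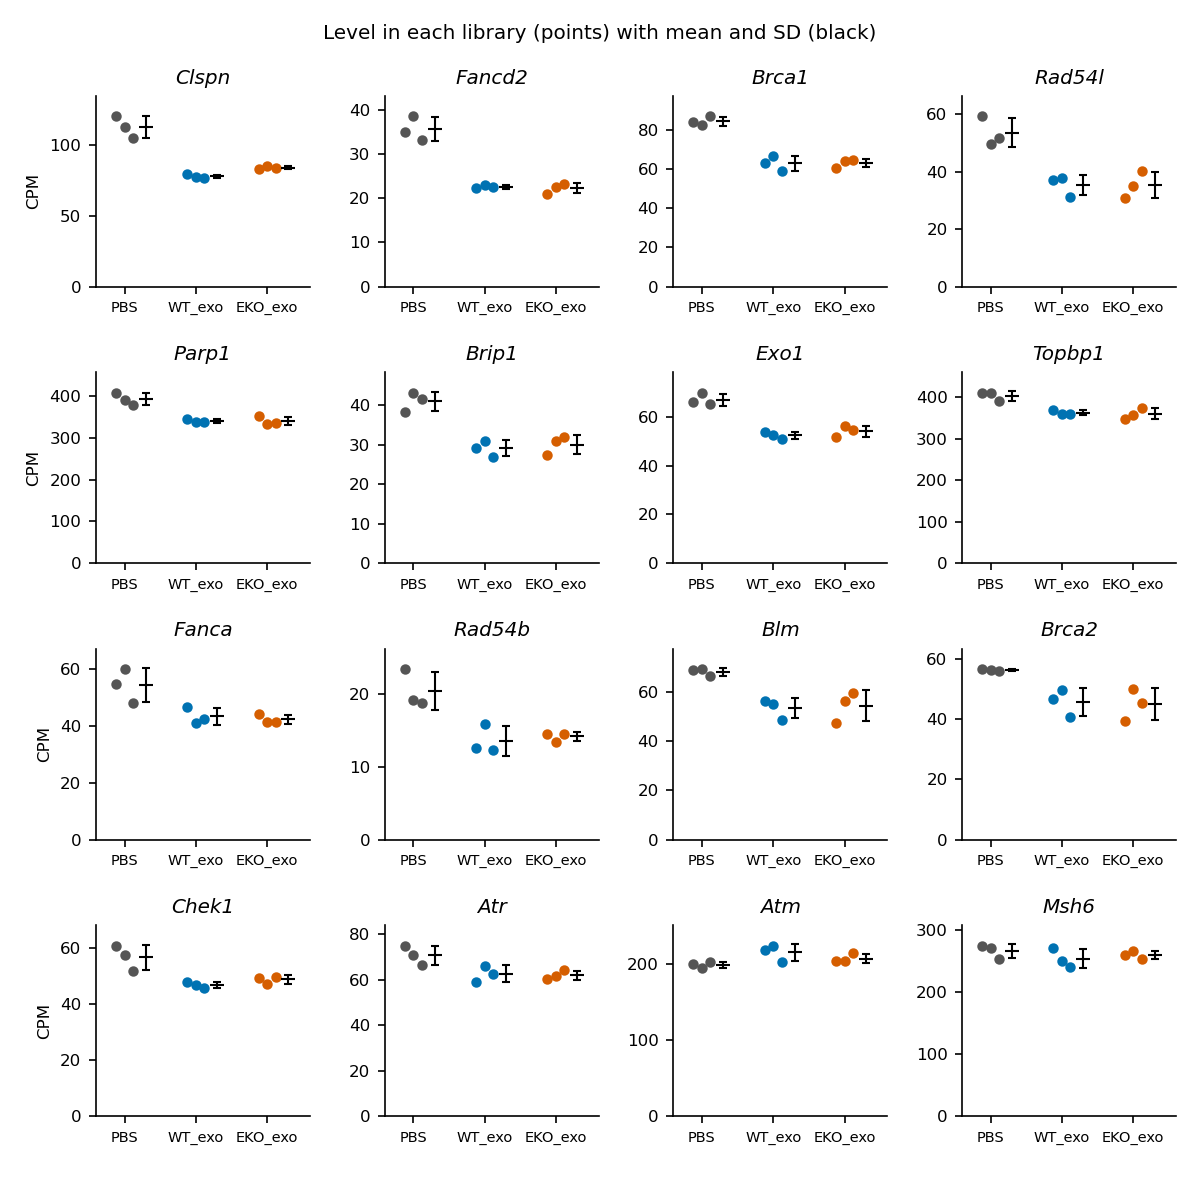
CPM on an axis from 0 in each of the 9 libraries (points) with the group mean and SD (black), for the 12 genes with the smallest p in EKO_exo against PBS and for Chek1, Atr, Atm and Msh6. In the first 12 panels the exosome libraries all sit below the PBS libraries, while the points of Msh6 overlap.

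Of the 12 recombination genes every one had a negative log2 fold change in both comparisons, and 8 passed the test in each. Brca1, whose protein starts recombination at broken ends (ENSMUSG00000017146, chromosome 11, 101488764 to 101551955), stood at 83.6, 82.1 and 86.7 CPM in PBS, 62.7, 66.4 and 59.1 in WT_exo and 60.5, 63.8 and 64.3 in EKO_exo. The exosome groups lay well under PBS and on top of each other, with log2 fold changes of -0.42 ± 0.061 and -0.42 ± 0.060 in EKO_exo and WT_exo (edgeR adjusted p = 5.82e-05 and 4.04e-05). Bard1, its obligate partner, fell too, by 18.5% and 18.9% (edgeR adjusted p = 0.0381 and 0.0327). With a replicate block its fall in EKO_exo no longer passed, and likewise with only the 2 groups compared (edgeR adjusted p = 0.0536 and 0.0515). Brca2, whose protein acts on the single-stranded DNA of trimmed ends, stood at 56.6, 56.5 and 56.1 CPM in PBS, 46.6, 49.8 and 40.7 in WT_exo and 39.5, 50.1 and 45.5 in EKO_exo. PBS varied little and the exosome libraries widely, at -0.33 ± 0.082 and -0.30 ± 0.082 (edgeR adjusted p = 0.0163 and 0.0249). Palb2, the bridge between BRCA1 and BRCA2, had values of similar size, -0.32 ± 0.10 and -0.31 ± 0.10, that did not pass (edgeR adjusted p = 0.0593 and 0.0818).

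Both genes of the RAD54 translocases, motor proteins that move along DNA during strand exchange, had some of the larger falls of the 34. Rad54l (ENSMUSG00000028702, chromosome 4, 116094264 to 116123690) stood at 59.2, 49.6 and 51.8 CPM in PBS, 37.00, 37.7 and 31.2 in WT_exo and 30.9, 34.9 and 40.2 in EKO_exo. No exosome library reached the lowest PBS library, and the log2 fold changes were -0.60 ± 0.094 and -0.60 ± 0.093 (edgeR adjusted p = 0.000145 and 0.000111). Rad54b was scarcer, at 23.4, 19.2 and 18.7 CPM in PBS, 12.6, 15.9 and 12.3 in WT_exo and 14.6, 13.4 and 14.5 in EKO_exo. Its groups did not overlap with PBS, and its log2 fold changes of -0.53 ± 0.12 and -0.59 ± 0.12 passed in EKO_exo and WT_exo (edgeR adjusted p = 0.0095 and 0.00296). Rad51ap1, an accessory factor of strand exchange, went from 35.3 ± 3.88 CPM in PBS to 27.05 ± 1.93 in EKO_exo and 26.9 ± 3.54 in WT_exo (SD, n = 3 each), and passed in both (edgeR adjusted p = 0.0242 and 0.0184).

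The helicase and the nuclease of the pathway fell by smaller amounts. Blm, which encodes the Bloom syndrome helicase, stood at 68.8, 69.1 and 66.3 CPM in PBS, 56.2, 55.2 and 48.7 in WT_exo and 47.4, 56.3 and 59.6 in EKO_exo. Its groups lay below PBS without overlap, with EKO_exo replicate 1 the lowest of the 9 libraries, at -0.32 ± 0.076 and -0.35 ± 0.075 log2 (edgeR adjusted p = 0.00961 and 0.00396). Exo1, an exonuclease that trims broken ends and also serves mismatch repair, stood at 65.9, 69.8 and 65.1 CPM in PBS, 53.9, 52.4 and 50.9 in WT_exo and 51.6, 56.1 and 54.6 in EKO_exo. Its libraries were tightly grouped and its log2 fold changes were -0.31 ± 0.064 and -0.35 ± 0.064 (edgeR adjusted p = 0.00334 and 0.000709). The strand exchange genes Rad51c, Xrcc2 and Xrcc3 did not pass. Rad51c, the scarcest of the 34 genes also per kb, had log2 fold changes of -0.56 ± 0.21 and -0.66 ± 0.21, Xrcc2 -0.32 ± 0.13 and -0.32 ± 0.12, and Xrcc3 -0.19 ± 0.10 and -0.21 ± 0.10. The wide standard error of Rad51c goes with its low level, 6.47 ± 1.26 CPM in PBS.

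**Figure D3:**
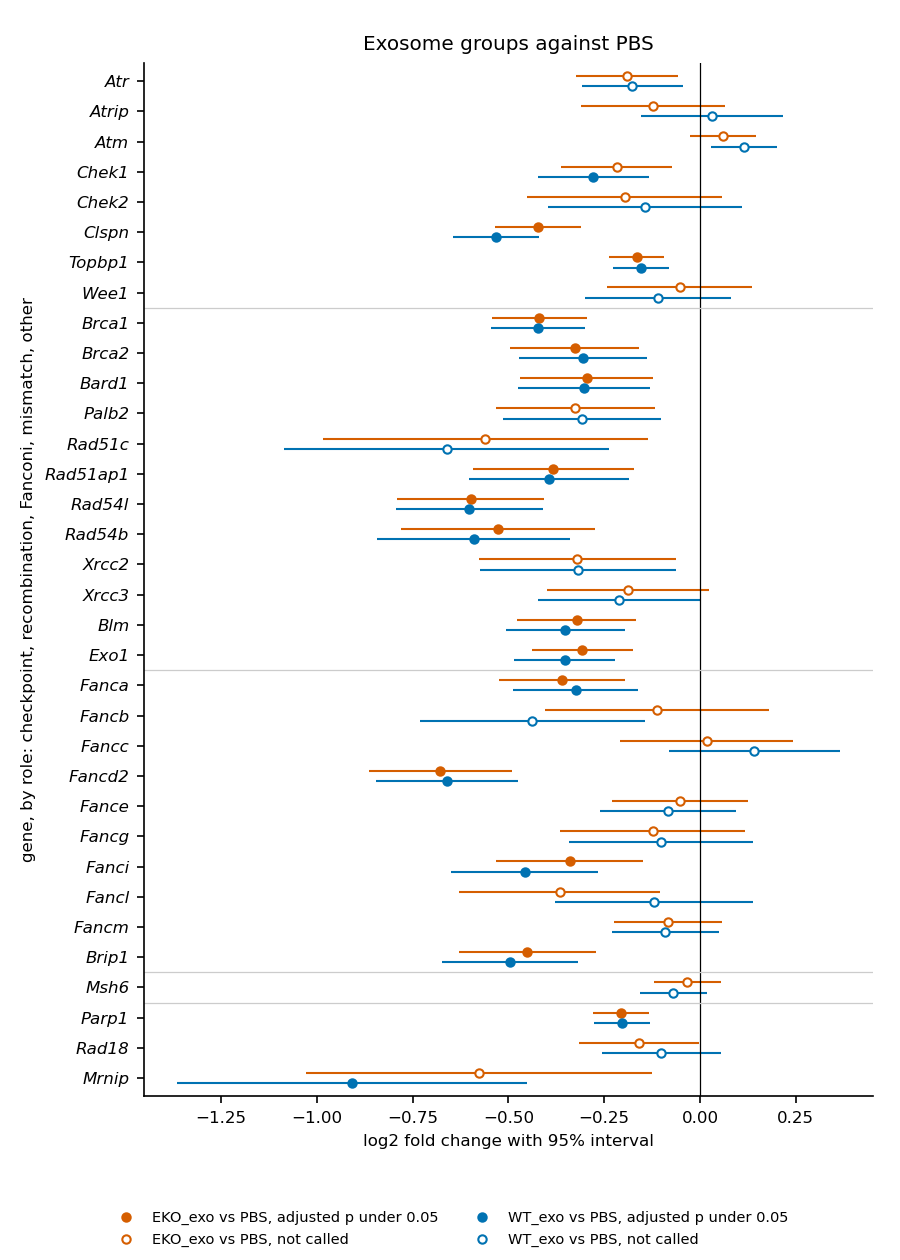
Log2 fold change against PBS with its 95% interval for each of the 34 genes, EKO_exo in orange and WT_exo in blue, filled where the adjusted p was under 0.05. All 12 recombination genes lie left of 0 in both colours, and the longest intervals belong to Mrnip and Rad51c.

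In the Fanconi pathway the clamp and the helicase changed while most of the core complex did not pass. Fancd2, which encodes a subunit of the clamp that is ubiquitinated at crosslinks (ENSMUSG00000034023, chromosome 6, 113531682 to 113597017), stood at 35.1, 38.5 and 33.3 CPM in PBS, 22.2, 22.99 and 22.4 in WT_exo and 20.97, 22.6 and 23.2 in EKO_exo. The exosome libraries sat in a narrow band far below PBS. Its log2 fold changes were -0.68 ± 0.091 and -0.66 ± 0.090 (edgeR adjusted p = 2.25e-05 and 2.43e-05), and the first was the largest fall among the 34 genes in EKO_exo. Fanci, the other subunit, went from 39.9 ± 3.32 CPM in PBS to 31.5 ± 2.75 in EKO_exo and 29.05 ± 3.12 in WT_exo (SD, n = 3 each) and passed in both (edgeR adjusted p = 0.0286 and 0.00238). Brip1, a helicase that binds BRCA1 and is also named FANCJ, stood at 38.2, 43.1 and 41.5 CPM in PBS, 29.2, 31.00 and 26.96 in WT_exo and 27.3, 30.8 and 31.8 in EKO_exo. Its log2 fold changes were -0.45 ± 0.087 and -0.50 ± 0.087, with no overlap between either exosome group and PBS (edgeR adjusted p = 0.00155 and 0.000522).

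Of the 7 genes of the core complex that ubiquitinates the clamp, 1 fell. This was Fanca, at 54.96, 60.01 and 48.1 CPM in PBS, 46.7, 41.03 and 42.4 in WT_exo and 44.2, 41.3 and 41.6 in EKO_exo. Its PBS libraries were spread, and the highest exosome library lay just under the lowest of PBS, with log2 fold changes of -0.36 ± 0.080 and -0.32 ± 0.080 (edgeR adjusted p = 0.00608 and 0.0131). Fancl, the ubiquitin ligase of the complex, had -0.37 ± 0.13 in EKO_exo and -0.12 ± 0.13 in WT_exo, and Fancb -0.11 ± 0.14 and -0.44 ± 0.14. None of these 4 values passed (edgeR adjusted p = 0.0995, 0.748, 0.771 and 0.0818). Fancc was the 1 Fanconi gene with positive values, 0.02 ± 0.11 and 0.14 ± 0.11. Fance, Fancg and the translocase gene Fancm lay between -0.12 and -0.05 log2 in the 2 comparisons, and none of the 3 passed.

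Msh6, whose protein recognises mismatched bases, stood at 275, 271 and 253 CPM in PBS, 270.5, 249.7 and 241 in WT_exo and 259.8, 266 and 254 in EKO_exo. The groups overlapped, and the log2 fold changes of -0.03 ± 0.043 and -0.07 ± 0.043 did not pass (edgeR adjusted p = 0.771 and 0.481). Their 95% intervals, -0.12 to 0.05 and -0.16 to 0.02, do not reach the change of Exo1 or Brca1. Parp1, which senses strand breaks, stood at 409, 392 and 379 CPM in PBS, 346, 339.6 and 339 in WT_exo and 353, 334 and 336 in EKO_exo. It fell by 13.3% in EKO_exo and 13.2% in WT_exo, a small shift against close replicates (edgeR adjusted p = 0.000449 and 0.000475). Rad18, which ubiquitinates the replication clamp PCNA, had -0.16 ± 0.076 and -0.10 ± 0.076 log2 and did not pass. Mrnip, a partner of the MRE11 complex, was at 6.33, 7.91 and 7.43 CPM in PBS, 2.49, 4.72 and 4.34 in WT_exo and 4.06, 4.34 and 6.11 in EKO_exo. It fell in WT_exo (-0.91 ± 0.22 log2, edgeR adjusted p = 0.0129, lost without PBS replicate 2 or WT_exo replicate 1) and had -0.58 ± 0.22 in EKO_exo (0.144).

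Calls that held in all 9 fits that leave out 1 library were those of Clspn, Brca1, Rad54l, Exo1, Fancd2, Brip1 and Parp1 in both comparisons, Topbp1 in EKO_exo and Fanci in WT_exo. In EKO_exo against PBS, Brca2, Bard1, Rad51ap1, Rad54b, Blm, Fanca and Fanci each lost the call in at least 1 of these fits (edgeR adjusted p up to 0.184). Those fits left out PBS replicate 1 (all but Fanca), PBS replicate 2 (all but Rad54b) or EKO_exo replicate 1 (Brca2, Bard1, Rad51ap1, Blm and Fanci). Rad51ap1, Bard1 and Fanci also lost it without EKO_exo replicate 2, and Bard1 without EKO_exo replicate 3 or WT_exo replicate 1. In WT_exo against PBS, Brca2, Bard1, Rad51ap1 and Fanca lost the call without PBS replicate 1, PBS replicate 2 or WT_exo replicate 3, Rad54b without PBS replicate 1 and Blm without WT_exo replicate 3 (up to 0.207). Brca2 also lost it without PBS replicate 3 or WT_exo replicate 1, Bard1 without WT_exo replicate 1, and Rad51ap1 and Fanca without WT_exo replicate 2.

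Some genes that did not pass did so under other settings. In EKO_exo against PBS, Atr passed above a mean of 5 CPM (edgeR adjusted p = 0.0434). Palb2 passed there with DESeq2, with no filter, above a mean of 5 CPM, and without EKO_exo replicate 3 or PBS replicate 3. In WT_exo against PBS, Palb2 and Fancb passed above a mean of 5 CPM, with only the 2 groups compared and without EKO_exo replicates 1 and 3, and Palb2 also without EKO_exo replicate 1. Rad51c passed in WT_exo with DESeq2, with only the 2 groups compared, without EKO_exo replicates 1 and 3 together or either of them, and without PBS replicate 2.

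The third comparison set EKO_exo directly against WT_exo, whose exosome donors differ in ApoE. Whether the cultures of a group shared an exosome preparation is not known here. If they did, donor ApoE and preparation cannot be told apart. Of the 34 genes 0 rose and 0 fell (edgeR quasi-likelihood test, and also 0 with DESeq2), where 0.0341% of all genes tested were called in either direction. The median log2 difference over the 34 genes was 0.00, and 26 of them differed by less than 0.1 log2 in either direction. At an unadjusted p under 0.05 there was 1 of the 34, where 7.08% of all genes tested had such a p. It was Fancb, an X-linked core complex gene, at 15.1, 12.1 and 12.4 CPM in EKO_exo and 10.02, 11.9 and 9.76 in WT_exo. Its difference was 0.32 ± 0.14 log2 with a 95% interval of 0.03 to 0.62 (edgeR adjusted p = 0.664). In 3 of the 34 genes the libraries of the exosome groups did not overlap (Fancb and Clspn higher and Atrip lower in EKO_exo), where 11.8% of all genes tested did not overlap.

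How closely the difference between the exosome groups was measured varied with the gene. For Brca1 the difference between the exosome groups was 0.00 ± 0.061 log2, with a 95% interval of -0.12 to 0.13, and for Rad54l 0.00 ± 0.095, with -0.19 to 0.20. Parp1 and Topbp1 had the narrowest intervals, -0.08 to 0.07 and -0.08 to 0.06. Clspn differed by 0.11 ± 0.055 (-0.01 to 0.22), Fancd2 by -0.02 ± 0.092 (-0.21 to 0.17) and Fancl by -0.25 ± 0.13 (-0.51 to 0.02). The widest interval was that of Mrnip, -0.13 to 0.79. Such an interval gives differences compatible with the data, not the smallest difference that would have passed the test. A value that missed the threshold does not show that the 2 kinds of exosome act alike.

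**Figure D4:**
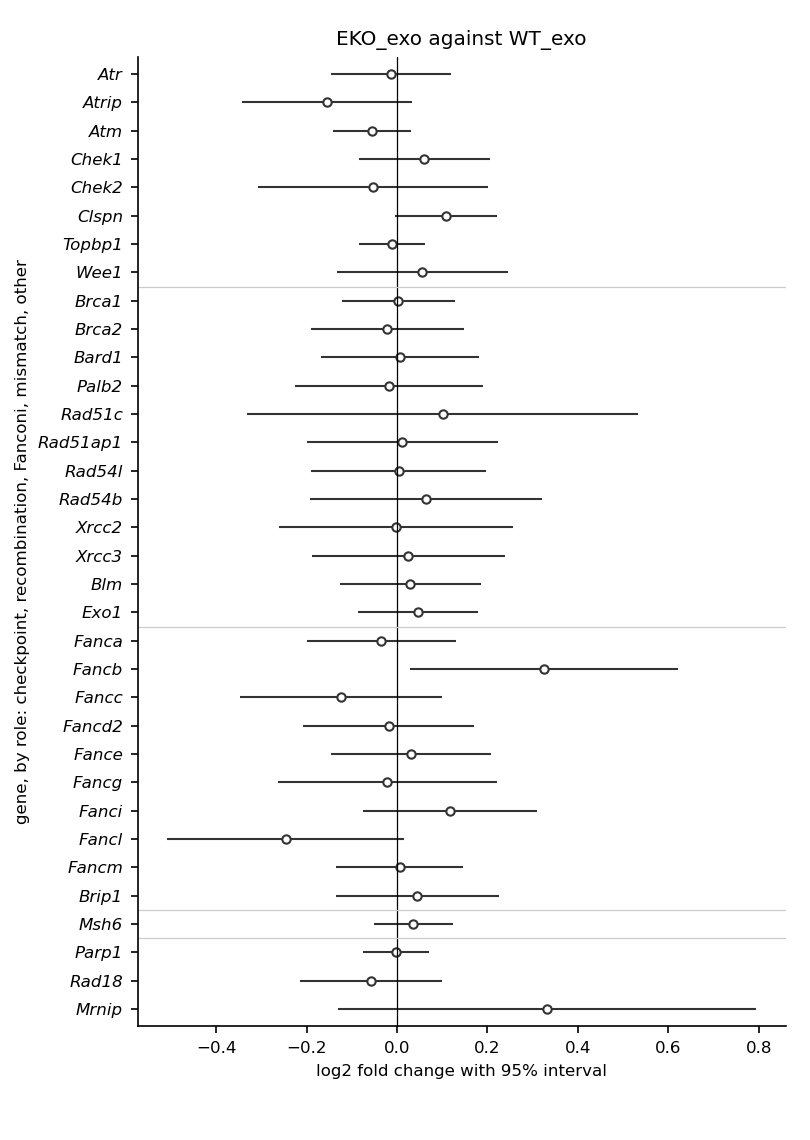
Log2 fold change of EKO_exo against WT_exo with its 95% interval for each of the 34 genes; circles are open because none had an adjusted p under 0.05. The points gather around 0, and the interval of Fancb alone lies wholly to the right of it.

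Other genes of these and neighbouring repair pathways, picked by function, were counted in the same way. Of 127 such genes 15 fell and 1 rose in EKO_exo, and 15 fell and 1 rose in WT_exo, with medians of -0.07 and -0.06 log2. Other recombination genes held 7 of these 15 falls in each comparison, out of 27 genes, such as Rpa1, of the single-strand binding complex, at -0.24 ± 0.037 and -0.21 ± 0.037. Eme1, a nuclease subunit that cuts branched DNA, was at -0.63 ± 0.12 and -0.56 ± 0.12. Of 20 other checkpoint genes 3 fell in EKO_exo and 4 in WT_exo, among them Mdc1, a scaffold at broken chromatin, at -0.26 ± 0.046 and -0.23 ± 0.045, and Timeless, a fork protection gene, at -0.25 ± 0.049 and -0.19 ± 0.048. Trp53, which encodes p53, rose in EKO_exo, at 0.13 ± 0.033 (edgeR adjusted p = 0.0162), and had 0.05 ± 0.033 in WT_exo (0.545).

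Of 14 other Fanconi genes 2 fell in EKO_exo, Cenps at -0.46 ± 0.13 and Usp1, the enzyme that removes ubiquitin from the clamp, at -0.15 ± 0.043. In WT_exo 1 of them fell, Usp1 at -0.16 ± 0.043, and 1 rose, Faap20 at 0.31 ± 0.091 (edgeR adjusted p = 0.0415). Base excision repair had 2 of 20 lower in each comparison, with the DNA ligase gene Lig1 at -0.35 ± 0.044 and -0.40 ± 0.044 and the glycosylase gene Neil3 at -0.58 ± 0.15 in EKO_exo. End joining had 1 of 11 lower, Polq, the polymerase of microhomology-mediated joining, at -0.43 ± 0.082 and -0.31 ± 0.081. In nucleotide excision repair 0 of 19 genes passed in either comparison, in translesion synthesis 0 of 10, and among the other mismatch repair genes 0 of 6. Nucleotide excision repair had medians of -0.03 and 0.00, and the other mismatch genes -0.15 and -0.12.

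Marker genes of S phase and of G2/M, none of them among the 34, moved in the same libraries. Of 81 such genes 57 fell and 0 rose in EKO_exo, with a median of -0.31, and 59 fell and 0 rose in WT_exo, with a median of -0.33. Between the exosome groups 0 of the 81 passed, with a median of 0.03. The summed level of the 81 genes was 11574 to 12057 CPM in PBS, 9683 to 9931 in WT_exo and 9642 to 10148 in EKO_exo. The summed level of the 34 repair and checkpoint genes was 2388 to 2542, 2066 to 2194 and 2102 to 2189 CPM, so that PBS overlapped with neither exosome group in either sum. The part of the share of cycling cells in the falls of the 34 genes was not tested.

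**Figure D5:**
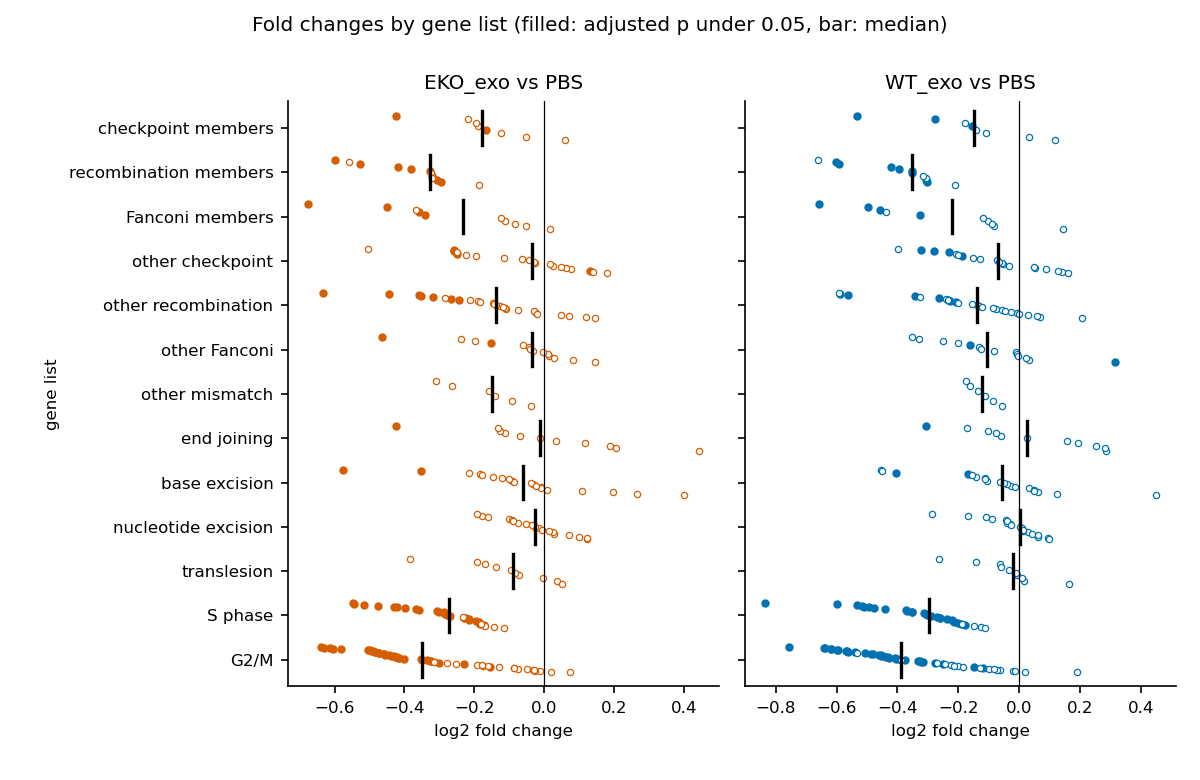
Log2 fold change against PBS of each gene (points, filled where the adjusted p was under 0.05) by gene list, with the median as a black bar; EKO_exo is on the left and WT_exo on the right. The rows of the recombination genes among the 34 (members), S phase and G2/M lie furthest to the left, and nucleotide excision repair is centred near 0.

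Markers of other cells were measured beside these genes. The summed level of 9 B cell markers was 524 to 565 CPM in PBS, 512 to 577 in WT_exo and 610.4 to 616 in EKO_exo, nearly all of it Ighm and Igkc, the antibody chain genes that rose in EKO_exo. The defining B cell gene Ms4a1 stayed at or below 0.819 CPM. For 10 macrophage markers the sums were 19.4 to 29.7, 22.8 to 29.8 and 24.8 to 29.6 CPM. Of the 10 markers 7 stayed under 1 CPM in every library, with C1qa at 0. Csf1r, 1 of the 10, rose in EKO_exo. The 5 NK cell markers summed to 16.3 to 19.7, 20.3 to 26.3 and 24.1 to 26.3 CPM, mostly Eomes, which rose in EKO_exo. Sums over 6 dendritic cell and 5 neutrophil markers were at most 12.9 and 1.53 CPM and their ranges overlapped between groups, though S100a9 passed as lower in WT_exo, where it had 0 counts in all 3 libraries against a mean of 0.445 CPM in PBS. Both CD8 genes summed to 11.2 to 12.2, 8.31 to 10.2 and 9.56 to 10.4 CPM, and 6 erythroid markers to 5.15 to 6.55, 2.78 to 4.97 and 2.55 to 3.65, with Hbb-bs and Hba-a1 at 0. Of the erythroid markers Car2 fell in EKO_exo (-0.99 ± 0.27 log2). The 8 T cell markers summed to 3230.2 to 3340.1, 3238 to 3329 and 3410.5 to 3491 CPM, and Cd3e and Cd247 rose in EKO_exo (0.12 ± 0.034 and 0.15 ± 0.034 log2). The part of these cells in the results was not tested.

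Reads of overlapping genes can be confused where the counting did not use strand, and the strand setting is not given in the sources used here. Exons of 8 of the 34 genes overlap those of a gene with at least 1000 counts over all libraries. Mrnip shares 28.4% of its exon bases with Sqstm1, which had log2 fold changes of 0.02 ± 0.037 and 0.05 ± 0.037 in EKO_exo and WT_exo. Fanci shares exons with Polg (0.03 ± 0.044 and 0.08 ± 0.044), Rad54l 15.4% with Lrrc41 (0.09 ± 0.063 and 0.17 ± 0.062), and Fanca 10.5% with Zfp276 (0.25 ± 0.084 and 0.28 ± 0.084). Fancl shares 13.7% with Vrk2 (-0.06 ± 0.14 and -0.05 ± 0.14) and Fancc 2.20% with 2010111I01Rik (0.19 ± 0.081 and 0.17 ± 0.080), and in both pairs the signs are the same. Msh6 and Xrcc3 share less than 1% with Fbxo11 (0.11 ± 0.056 and 0.17 ± 0.056) and Klc1 (0.05 ± 0.048 and 0.08 ± 0.048). None of the 8 neighbours passed the test in either comparison, and the part of shared reads in the results was not tested. Rad54b shares 35.8% with Fsbp on the same strand, a gene with 214 counts in all (-0.15 ± 0.59 and 0.11 ± 0.58).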

How the data were processed

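Messenger RNA of 9 cultures was sequenced. The deposited values are whole-number counts per Ensembl gene with no normalization, per the file headers and values. Reads were aligned with STAR 2.7.5c to GRCm38, per the submitters' processing notes; no source used here gives the counter, its strand setting or its annotation. Symbols, positions and exon lengths came from GENCODE M21 (GRCm38), which matched all 55536 identifiers, and promoters from RefSeq (GRCm38.p6). Groups and replicate numbers came from sample titles. No pair of replicates agreed within sampling noise (chi-square over its degrees of freedom 5.02 to 9.08).

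The filter filterByExpr of edgeR 4.0.16 (R 4.3.3; minimum count 10, minimum total 15) left 14684 genes with at least 99.92% of each library's counts. Libraries were scaled by TMM, 1 model of the 3 groups was fitted to all 9 libraries, and groups were compared by the quasi-likelihood F test (residual df 6, prior df 21.1). Genes were called, and only then said to have risen or fallen, at a Benjamini-Hochberg adjusted p under 0.05 over all genes tested. Standard errors of log2 fold changes come from the F statistic, and 95% intervals from a t distribution with the total degrees of freedom. Gene lists are described by counts and medians. The fit was tested on simulated data. The alternatives were other scaling (RLE, upper quartile, none), DESeq2 1.42.0, no filter or a mean of at least 5 CPM, fits of 2 groups, a replicate block, and fits without single libraries.

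The 34 genes and the lists were chosen with earlier results of these data known. Per-library values are printed for the 12 genes with the smallest p in EKO_exo against PBS, for those called in EKO_exo against WT_exo or called higher (0 of each), and for Msh6; Chek1, Atr, Atm, Fancb and Mrnip were added after their values were seen. Of the other lists the 2 called genes with the smallest p in EKO_exo against PBS are named, with any called against its list.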

Additional observations from a re-analysis of the deposited data

How the results depend on the processing

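In every alternative 0 of the 34 genes were called higher in any comparison, 0 were called in EKO_exo against WT_exo, and the median over the 34 genes against PBS stayed negative. The median log2 fold change of all genes tested stayed between -0.01 and 0.01 throughout. Under the other scalings the counts of the 34 genes that fell stayed at 15 and 17. With DESeq2 they were 17 and 18, with a mean of at least 5 CPM 18 and 19, with no filter 16 and 17, and with only the 2 groups compared 14 and 20, for EKO_exo and WT_exo against PBS. Without EKO_exo replicates 1 and 3, 6 fell in EKO_exo, and over all genes 84 rose and 165 fell; against WT_exo 0 rose and 0 fell. Leaving out 1 library at a time gave 9 to 17 genes lower in EKO_exo and 10 to 19 in WT_exo, with medians of -0.33 to -0.23 and -0.33 to -0.26. Such fits have fewer samples. Over all genes they gave 148 to 293 higher and 227 to 400 lower in EKO_exo against PBS, 129 to 337 and 269 to 533 in WT_exo, and 0 to 5 and 0 to 2 in EKO_exo against WT_exo.

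Over all genes DESeq2 called 537 higher in EKO_exo and 410 in WT_exo, where edgeR called 325 and 269, and with only the 2 groups compared 436 rose in WT_exo. In EKO_exo against WT_exo edgeR called 4 higher and 1 lower, DESeq2 20 and 5, no filter 24 and 4, and a mean of at least 5 CPM 7 and 2. The cause of these shifts was not tested. With the replicate block 14 of the 34 genes fell in EKO_exo and 17 in WT_exo, and over all genes 1 rose and 0 fell in EKO_exo against WT_exo. Libraries with the same number did not deviate together (r from -0.02 to 0.02 over 9 pairs), and 1 of 9 libraries correlated best with its own number in both other groups. These values gave no sign that the numbers pair the samples, but a weak shared source could go unseen. The block ended the call of Bard1 in EKO_exo. The standard error against PBS was up to 0.22 log2 for Mrnip, at 77 or more counts in each library, and 0.035 for Topbp1, and counting error was not separated from the spread between cultures.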

Other observations

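Within a group, single libraries were often the lowest or highest for many of the repair and checkpoint genes together. EKO_exo replicate 1 was the lowest of its group for 21 of the 34 genes, with a median deviation of -0.04 log2 from the group mean, and EKO_exo replicate 3 was the highest for 18. In WT_exo, replicate 3 was the lowest for 22 genes and the highest for 0, with a median deviation of -0.08 log2. In PBS, replicate 1 was the highest for 19 genes (median deviation 0.06) and replicate 3 the lowest for 21 (-0.05). These shifts within groups are smaller than the median change of -0.30 log2 between EKO_exo and PBS.

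Summed over their members, recombination genes stood at 77.3% of PBS in EKO_exo and 76.7% in WT_exo, and Fanconi genes at 83.3% and 82.9%. Checkpoint genes stood at 90.6% and 91.3%. Abundant genes weigh most in such sums: of the mean checkpoint sum of 920 CPM in PBS, Topbp1 held 404 and Atm 199. The other 20 base excision genes stood at 91.1% and 89.5%, and 19 nucleotide excision genes at 97.2% and 98.2%. The lists for S phase stood at 84.3% and 83.1%, and for G2/M at 83.6% and 82.4%.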
